A study of Mus musculus with 2 samples.

Results

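Mitochondrial ribosomal proteins are the nuclear-encoded proteins of the mitochondrial ribosome, and their genes carry the names Mrpl for the large subunit and Mrps for the small one. The genes were taken from the count table by symbol, as every row whose Ensembl ID maps to Mrpl or Mrps followed by a digit, without symbols ending in -ps, which mark pseudogenes. This gave 77 genes of the 20823 listed, 48 named Mrpl and 29 named Mrps. Mrpl53, the 1 other symbol of the name table that matches the rule, was not among the rows of the count table and is not analysed here.

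The series holds 2 RNA-seq libraries of hepatocytes from C57BL6J mice aged 8 weeks. The APAP library came from liver taken 24 h after acetaminophen at 300 mg/kg, given intraperitoneally in saline, and the control library from liver with no agent. In both, the perfused liver was digested with collagenase, cells with CD31 or CD45 on their surface were sorted away, and 20000 cells with high Cxcr2 were kept. How many animals stand behind each library, and of which sex, is not given in the sources used here.

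Inside the organelle, the mitochondrial ribosome translates the few mRNAs that the mitochondrial genome encodes, all of them for membrane subunits of the respiratory chain and the ATP synthase. Its ribosomal RNAs come from the mitochondrial genome, while every protein of the particle is made in the cytosol and imported. Compared with the bacterial ribosome from which it descends, it has less RNA and more protein. Many of its proteins are homologues of bacterial ones, and others occur only in mitochondria. Hepatocytes hold many mitochondria, and acetaminophen is known to injure these organelles through its reactive product.

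The mRNAs of the mitochondrial ribosome had nearly equal levels in the APAP and the control library. The 77 genes together had 101306 counts in the APAP library and 79330 in the control library, from library totals of 51009898 and 52419864. After scaling both libraries by the trimmed mean of M-values (TMM), this was 1762 CPM (counts as a share of the scaled library total) in the APAP library, against 1706 CPM in the control, a ratio of 1.03 with a 95% counting interval of 1.02 to 1.04, or 1.31 when scaled by total counts. None of the 77 genes was at least 2-fold higher or at least 2-fold lower, whereas 10.7% and 7.09% of the 14096 genes with at least 20 counts over both libraries were. Among the 8361 other genes in the members' own range of counts, 292 to 9195 over both libraries, these shares were 5.21% and 3.74%. Relaxing the limit to 1.5-fold left 1 member higher, Mrpl54, and 1 lower, Mrpl14, while 17.6% of all genes were higher and 13.1% lower by that limit. These calls depend on the scaling. With total counts in place of TMM, 1 member was 2-fold higher and none lower, against 17.3% and 4.44% of all genes, and 15 were 1.5-fold higher and none lower, against 33.1% and 7.04%. A gene passed these limits only if its counting interval also excluded 1. Each group was 1 library, so there was no replicate check and no test of the conditions, and intervals cover counting error only. In bulk RNA from sorted cells, fewer cells of a type and less RNA per cell cannot be told apart.

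Every member was detected well above the minimum of 20 counts, so none was left out. Levels ranged from 2.91 to 87.0 CPM in the APAP library, with a median of 20.2, and from 2.69 to 90.2 CPM in the control library, with a median of 18.5. Mrps6 was lowest in both libraries, with 167 counts in the APAP library and 125 in the control library, and Mrpl12 highest, with 5002 and 4193. The order of the genes was kept closely: Spearman's rho between the CPM values of both libraries was 0.935 over the 77 members and 0.905 over the 8438 genes in the same range of counts. This is a description across genes, which share the depth of the 2 libraries.

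**Figure D1:**
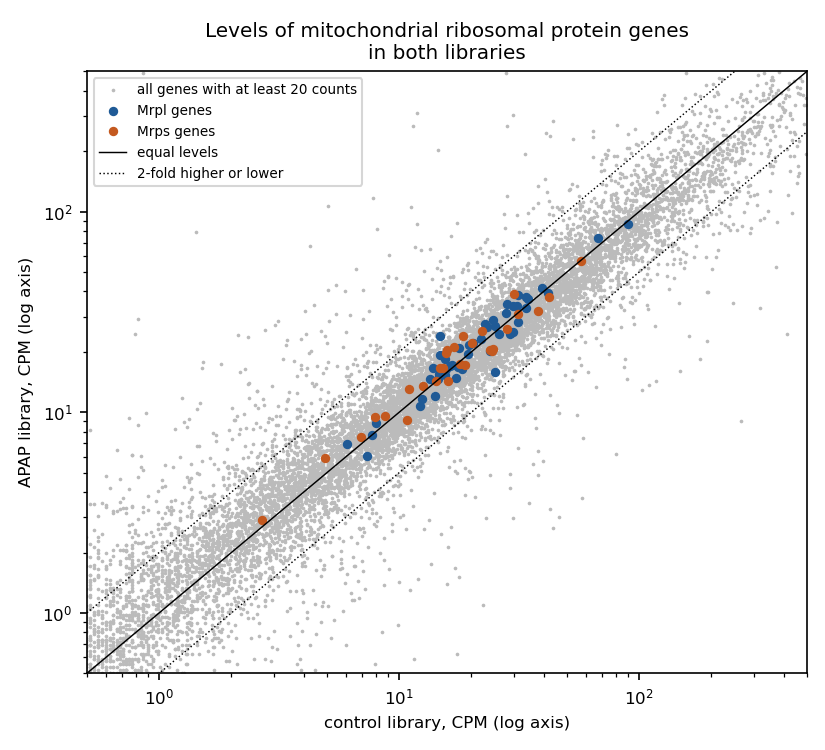
Level of each gene in the APAP library (vertical axis) against the control library (horizontal axis), in CPM on log axes that leave out the lowest and the highest genes. Mrpl genes are blue, Mrps genes orange and all genes with at least 20 counts grey. The solid line marks equal levels and the dotted lines a 2-fold difference, and all 77 members lie between the dotted lines.

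The members also stayed close to each other. Their log2 ratios, APAP over control, had a median of 0.08 and ran from -0.66 to 0.71, with an interquartile range of 0.28. The other 8361 genes in the same range of counts had a median of -0.01 and an interquartile range of 0.59. Ratios lay within 1.5-fold of 1 for 75 of the 77 members (97.4%) and for 77.5% of those other genes. With total counts these shares were 62 of 77 (80.5%) and 66.5%. A narrow spread was not particular to the members. The interquartile range was 0.26 for cytosolic ribosomal proteins, 0.19 for nuclear-encoded respiratory chain subunits and 0.18 for mitochondrial proteases and chaperones. Across the 77 members, Spearman's rho of the log2 ratio was -0.03 with the total count and -0.10 with mRNA length.

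Counting error alone left small differences visible. For 28 members the 95% interval of the ratio excluded 1 on the high side, for 18 on the low side, and for 31 it held 1. Low counts, from 1 to 20 over all genes, were mostly even numbers, whereas 48.05% of the members' own counts were even. With counts halved for that reason, 21 lay above 1, 11 below and 45 held 1. Of the members named here, Mrpl10, Mrpl18, Mrpl45, Mrpl47, Mrps18c, Mrps25 and Mrps33 then held 1. Among all genes with at least 20 counts, 34.1% lay above 1 and 33.0% below. With total counts every log2 ratio moved up by 0.35, and the interval lay above 1 for 65 members and below 1 for 1, against 60.2% and 14.7% of all genes. The median of the members was 0.06 above that of all genes on the log2 scale, a difference that scaling cannot change.

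The large and the small subunit had similar ratios. The 48 Mrpl genes had a median log2 ratio of 0.08, and none was past the 2-fold limit. The 29 Mrps genes had a median log2 ratio of 0.11, and none of them passed it either. Large minus small, the medians differed by -0.02 (log2). Intervals lay above 1 for 17 Mrpl genes and below 1 for 10, and above 1 for 11 Mrps genes and below 1 for 8. Summed over genes, the large subunit had 1178 CPM in the APAP library, against 1134 CPM in the control, a ratio of 1.04 (1.03 to 1.05). The small subunit had 583.6 CPM in the APAP library, against 571.6 CPM in the control, a ratio of 1.02 (1.005 to 1.038).

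Small-subunit genes made up 33.1% of all member counts in the APAP library (exact binomial 95% interval 32.8 to 33.4%) and 33.5% in the control library (33.2 to 33.8%). The shares differed by -0.39 percentage points, APAP minus control, and their intervals overlapped, so a shift between the subunits was not detectable at this depth. This share does not depend on how the libraries are scaled.

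Names and places in the ribosome differ for a few genes. In solved structures of the mammalian mitochondrial ribosome, the products of Mrps30 and Mrps18a sit in the large subunit, and the product of Mrps36 belongs to the oxoglutarate dehydrogenase complex instead. Placed by structure, 50 genes of the large subunit had a median log2 ratio of 0.08 and 26 of the small subunit one of 0.12. The small-subunit share was then 30.9% in the APAP library (30.6 to 31.2%) and 31.1% in the control library (30.7 to 31.4%). Mrps30 had 779 counts in the APAP library and 586 in the control library, a ratio of 1.075 (0.965 to 1.199). Mrps36 had 431 counts in the APAP library and 324 in the control library, a ratio of 1.076 (0.930 to 1.247), so neither gene differed beyond counting error.

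**Figure D2:**
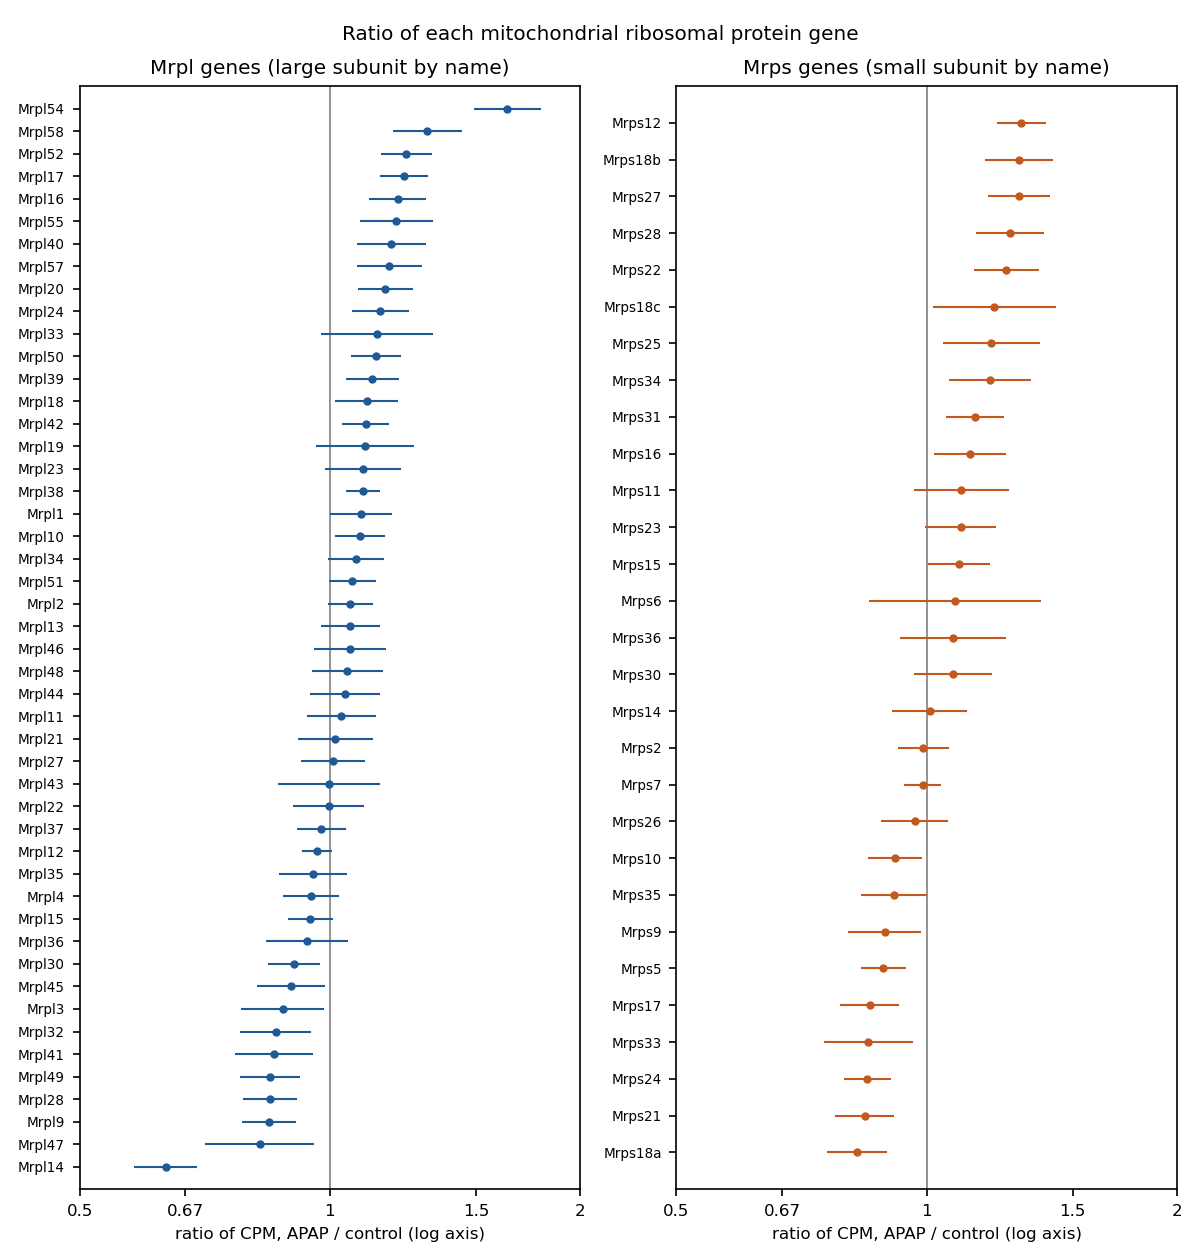
Ratio of CPM, APAP over control, of each gene on a log axis, for the 48 Mrpl genes (left) and the 29 Mrps genes (right), with bars for 95% counting intervals and a grey line at 1. Mrpl54 (1.63) and Mrpl14 (0.635) stand at the ends, and the other members lie between 0.823 and 1.31.

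Mrpl54 (ENSMUSG00000034932), a large-subunit protein with no bacterial counterpart, had the highest ratio. It had 1384 counts (24.1 CPM) in the APAP library, against 685 counts (14.7 CPM) in the control library, 1.63-fold higher (1.49 to 1.79). With total counts as the scaling it was 2.08-fold higher. In GENCODE M21, 32 of the 77 members share exon bases with other genes, and Mrpl54 shares none. Next among Mrpl genes came Mrpl58 (ENSMUSG00000018858), a peptidyl-tRNA hydrolase of the release factor family that frees stalled ribosomes. It had 1112 counts (19.3 CPM) in the APAP library and 686 counts (14.8 CPM) in the control library, 1.31-fold higher (1.19 to 1.44).

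The next 4 Mrpl genes lay close together. Mrpl52, another protein found only in mitochondria, had 34.8 CPM in the APAP library, against 28.2 CPM in the control, 1.24-fold higher (1.15 to 1.33). Mrpl17, a homologue of bacterial L17, had 38.4 CPM in the APAP library, against 31.2 CPM in the control, 1.23-fold higher (1.15 to 1.31). Mrpl16, a homologue of bacterial L16 near the tRNA sites, had 27.5 CPM in the APAP library, against 22.8 CPM in the control, 1.21-fold higher (1.12 to 1.31). All of these intervals lay above 1, as did that of Mrpl55, the counterpart of bacterial L31, which had 16.7 CPM in the APAP library, against 13.9 CPM in the control, a ratio of 1.203 (1.087 to 1.331).

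Mrpl14 (ENSMUSG00000023939) had the lowest ratio of all members. Its product, a homologue of bacterial L14, faces the small subunit and is bound by the assembly factor Malsu1, which keeps immature large subunits from joining. Mrpl14 had 912 counts (15.9 CPM) in the APAP library, against 1162 counts (24.98 CPM) in the control library, 1.57-fold lower (1.44 to 1.72). It was the 1 member whose ratio stayed below 1 with total counts, at 0.806. In the same annotation, 11.2% of its exon bases overlap Tmem63b on the opposite strand, and whether the counting used strand is not given in the sources used here. Malsu1 itself had 551 counts in the APAP library and 438 in the control library, a ratio of 1.02 (0.896 to 1.16).

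The other low Mrpl genes formed a narrow group. Mrpl47, the counterpart of bacterial L29 at the exit of the peptide tunnel, had 348 counts in the APAP library and 342 in the control library, a ratio of 0.823 (0.707 to 0.958), and shares 24.2% of its exon bases with other genes. Mrpl9, Mrpl28, Mrpl49 and Mrpl41 had ratios of 0.845 (0.784 to 0.912), 0.847 (0.787 to 0.913), 0.848 (0.781 to 0.922) and 0.857 (0.769 to 0.955). Mrpl9 and Mrpl28 are homologues of bacterial proteins, and Mrpl41 and Mrpl49 are found only in mitochondria. With total counts these 5 genes moved to ratios between 1.05 and 1.09, so their direction depends on the scaling.

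Among Mrps genes the highest ratio was that of Mrps12, the homologue of bacterial S12 at the decoding centre. It had 2243 counts (39.0 CPM) in the APAP library and 1396 counts (30.02 CPM) in the control library, 1.30-fold higher (1.22 to 1.39). Mrps27, a pentatricopeptide repeat protein found only in mitochondria, had 23.9 CPM in the APAP library, against 18.5 CPM in the control, 1.29-fold higher (1.19 to 1.41), and shares 24.2% of its exon bases. Mrps28 had 19.7 CPM in the APAP library, against 15.7 CPM in the control, 1.26-fold higher (1.15 to 1.38). Mrps22, also specific to mitochondria, stood beside it with 21.03 CPM in the APAP library, against 16.86 CPM in the control, 1.247-fold higher (1.139 to 1.366).

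Mrps5 and Mrps24, the counterparts of bacterial S5 and S3 where the mRNA enters, were on the low side. Mrps5 had 2151 counts (37.4 CPM) in the APAP library and 1961 counts (42.2 CPM) in the control library, a ratio of 0.887 (0.834 to 0.944). Mrps24 had 1847 counts (32.1 CPM) in the APAP library and 1761 counts (37.9 CPM) in the control library, a ratio of 0.848 (0.794 to 0.906). Mrps17, Mrps33 and Mrps21 had ratios of 0.854 (0.786 to 0.928), 0.851 (0.752 to 0.963) and 0.843 (0.777 to 0.915). With total counts all 5 of these genes moved above 1, to between 1.07 and 1.13.

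The paralogs of bacterial S18 occupy different sites, and the ratio of Mrps18a was below those of Mrps18b and Mrps18c. Mrps18a, whose product sits in the large subunit, had 1157 counts (20.1 CPM) in the APAP library and 1136 counts (24.4 CPM) in the control library, a ratio of 0.824 (0.759 to 0.895). Mrps18b, in the small subunit at a site of its own, had 1174 counts (20.4 CPM) in the APAP library and 735 counts (15.8 CPM) in the control library, a ratio of 1.29 (1.18 to 1.42). Mrps18c, at the place of the bacterial protein, was less abundant, with 340 counts (5.91 CPM) in the APAP library and 228 counts (4.90 CPM) in the control library, a ratio of 1.21 (1.02 to 1.43). The interval of Mrps18a lay below that of Mrps18b and below that of Mrps18c, an order that no scaling changes, whereas the ratio of Mrps18a itself was 1.05 with total counts. In GENCODE M21, 30.5% of the exon bases of Mrps18b overlap an antisense gene, and 23.2% of those of Mrps18c a gene on the same strand.

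The 5 members listed at the exit of the peptide tunnel (Mrpl22, Mrpl23, Mrpl24, Mrpl45 and Mrpl47) had log2 ratios from -0.28 to 0.20, 1 interval above 1 and 2 below. Mrpl45, which docks the ribosome on the inner membrane, had 940 counts in the APAP library and 846 in the control library, a ratio of 0.899 (0.818 to 0.988). Mrpl24 had 1533 counts in the APAP library and 1077 in the control library, a ratio of 1.151 (1.064 to 1.246), and shares 26.3% of its exon bases. The 3 members listed at the stalk, which recruits translation factors, had 1 interval above 1: Mrpl12 had a ratio of 0.965 (0.926 to 1.01), Mrpl11 one of 1.03 (0.938 to 1.14) and Mrpl10 one of 1.09 (1.02 to 1.17).

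All 7 members listed at the central protuberance, the part of the large subunit above the tRNA sites, had ratios above 1. The intervals of 5 excluded 1. Mrpl38, the most abundant of the 7, had 4228 counts in the APAP library and 3120 in the control library, a ratio of 1.10 (1.05 to 1.15). Mrpl40 had 1061 counts in the APAP library and 724 in the control library, a ratio of 1.19 (1.08 to 1.31). Mrpl18 had a ratio of 1.11 (1.02 to 1.21), while Mrpl46 and Mrpl48 had ratios of 1.06 and 1.05 with intervals that held 1. Of the 4 members along the mRNA channel, Mrps5, Mrps7 and Mrps24 had ratios below 1 and Mrps12 stood above. Mrps7, in the head of the small subunit, had 3257 counts in the APAP library and 2664 in the control library, a ratio of 0.989 (0.939 to 1.04). The lists may not hold every protein of a region. With 3 to 7 genes each, the counts describe these genes and mark no region as different from the rest of the ribosome. Over all 77 members, 47 ratios were above 1, or 76 with total counts.

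Split by origin, with genes placed by structure, the medians of the mitochondria-specific genes were the higher ones in both subunits, and the difference was not tested. Mrps18a (log2 ratio -0.28) and Mrps18b (0.37), of a bacterial family but at other sites, were put in neither class, and nor was Mrps36. In the large subunit, 19 mitochondria-specific genes had a median log2 ratio of 0.10 and 30 bacterial homologues one of 0.03. In the small subunit, 9 mitochondria-specific genes had a median of 0.19 and 16 bacterial homologues one of -0.0003. Their ranges overlapped. In the large subunit, log2 ratios ran from -0.24 to 0.71 for mitochondria-specific genes and from -0.66 to 0.30 for bacterial homologues. In the small subunit they ran from -0.23 to 0.37 and from -0.25 to 0.38 for the same classes.

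Some structural proteins of the ribosome carry other names and were not among the 77. Dap3, a GTP-binding protein of the small subunit, had 1770 counts in the APAP library and 1310 in the control library, a ratio of 1.09 (1.02 to 1.18). Gadd45gip1, a protein of the large subunit, had 730 counts in the APAP library and 484 in the control library, a ratio of 1.22 (1.09 to 1.37). Ptcd3, a pentatricopeptide repeat protein at the mRNA entry, was on the other side of 1, with 1449 counts in the APAP library and 1370 in the control library, a ratio of 0.856 (0.794 to 0.922), or 1.09 with total counts. Chchd1 had a ratio of 1.14 (1.041 to 1.249) and Aurkaip1 one of 1.04 (0.975 to 1.12). None of the 5 passed the 1.5-fold limit, and with total counts Gadd45gip1 did, at 1.55.

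Levels of different genes were compared per kilobase of mRNA, taking the GENCODE M21 transcript with the longest coding sequence. The median was 13.6 CPM per kb in the APAP library and 13.5 CPM per kb in the control library. For Mrpl genes it was 15.2 CPM per kb in the APAP library and 15.1 in the control library, and for Mrps genes 10.7 in the APAP library and 10 in the control library. On this scale Mrpl52 stood highest in the APAP library, with 83.2 CPM per kb against 67.3 in the control library, followed by Mrpl12 with 66.1 in the APAP library and 68.5 in the control library. The lowest were Mrps25, with 1.56 CPM per kb in the APAP library and 1.31 in the control library, and Mrpl19, with 1.77 and 1.60. Mrps25 shares 69.8% of its exon bases with other genes and Mrpl19 36%. The spread between genes was thus wider than the difference between the libraries of any member. Which transcripts these cells use was not tested, and another choice would change the lengths. Of the 4 Mrpl genes with the most counts, Mrpl12 and Mrpl38 are described above. The others were Mrpl2, a homologue of bacterial L2, with 2404 counts in the APAP library and 1837 in the control library (a ratio of 1.06, 0.996 to 1.13), and Mrpl15, with 2265 and 1933 (a ratio of 0.948, 0.892 to 1.01).

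**Figure D3:**
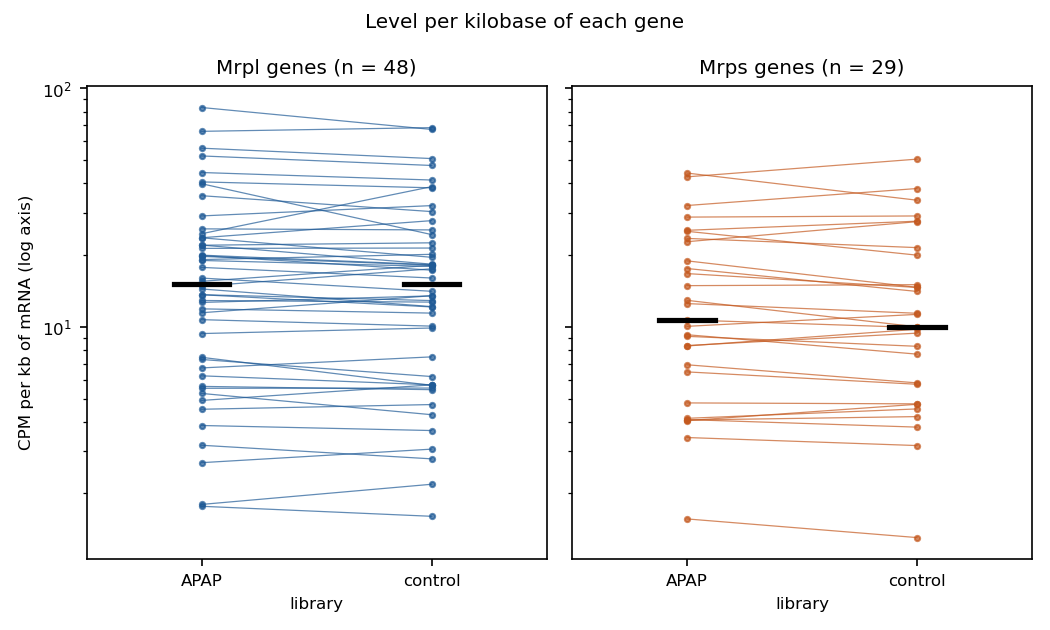
Level of each gene in CPM per kilobase of mRNA (log axis), with a line joining its APAP and its control value, for the 48 Mrpl genes (left) and the 29 Mrps genes (right). Black bars mark medians, which were 15.2 (APAP) and 15.1 (control) for Mrpl genes and 10.7 (APAP) and 10 (control) for Mrps genes. Lines that join values of 1 gene are mostly near level.

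Promoters of genes for mitochondrial proteins often hold sites for nuclear respiratory factor 1 (NRF1), for ETS proteins such as Gabpa, and for YY1. RefSeq promoter windows of build GRCm38.p6, from 250 bases before to 50 bases after the start, matched 68 of the 77 members. On either strand, the letters GCGCANGCG, read here as an NRF1 motif, stood in at least 1 window of 16 of the 68 genes (23.5%), against 15.4% of genes with at least 20 counts and 7.03% of all genes in the table. The ETS letters CCGGAAGT stood in 12 (17.6%), against 9.43% and 4.31%. The YY1 letters AAGATGGC also stood in 12 (17.6%), against 5.398% and 3.19%. No motif is contained in another, 37 of the 68 held at least 1, and a match is a run of letters and not a measured site.

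Members with and without each motif had overlapping ratios. The 16 with the NRF1 letters had a median log2 ratio of -0.05 (-0.66 to 0.37), and the 52 without them one of 0.10 (-0.28 to 0.39). For the ETS letters the medians were 0.12 with and 0.07 without, and for the YY1 letters -0.05 with and 0.10 without. The windows below belong to the member with the highest ratio among those with a window, to the one with the lowest ratio and to the one with the most counts. Each runs from 250 bases before to 30 bases after the start, with NRF1 letters in capitals. Mrpl58 lies at chr11:115403502-115403781, Mrpl14 at chr17:45686099-45686378 and Mrpl12 at chr11:120484387-120484666, all on the plus strand of GRCm38.p6.
Mrpl58: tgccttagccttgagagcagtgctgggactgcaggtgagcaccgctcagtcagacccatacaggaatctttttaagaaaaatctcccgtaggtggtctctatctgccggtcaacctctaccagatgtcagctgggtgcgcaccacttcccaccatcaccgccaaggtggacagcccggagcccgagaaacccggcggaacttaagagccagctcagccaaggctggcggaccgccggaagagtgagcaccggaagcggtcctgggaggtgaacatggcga
Mrpl14: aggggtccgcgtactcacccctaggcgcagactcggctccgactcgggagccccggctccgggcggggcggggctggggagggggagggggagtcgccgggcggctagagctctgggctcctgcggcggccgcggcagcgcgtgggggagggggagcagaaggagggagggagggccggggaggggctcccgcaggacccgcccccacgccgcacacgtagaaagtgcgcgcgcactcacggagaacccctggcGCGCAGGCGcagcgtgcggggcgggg
Mrpl12: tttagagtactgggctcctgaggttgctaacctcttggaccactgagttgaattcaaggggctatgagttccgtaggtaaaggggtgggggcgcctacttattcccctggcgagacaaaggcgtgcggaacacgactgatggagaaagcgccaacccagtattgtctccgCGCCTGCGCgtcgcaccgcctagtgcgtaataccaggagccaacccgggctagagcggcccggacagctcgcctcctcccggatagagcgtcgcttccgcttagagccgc
The Mrpl58 window, of the gene with a ratio of 1.31, held no exact match to the searched letters, and near matches were not searched. In Mrpl14, with the lowest ratio of 0.635, the capitals mark bases 5 to 13 after the start on the gene's own strand. In Mrpl12, with a ratio of 0.965, they mark bases -80 to -72 on the opposite strand.

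The mRNAs of Nrf1, Gabpa and Yy1, whose products bind such motifs, had lower levels in the APAP library. Of 12 regulators of mitochondrial biogenesis, 2 were at least 2-fold lower (Ppara and Myc) and none was 2-fold higher, against 7.09% and 10.7% of all genes. For 9 the interval lay below 1 and for 1 above, against 33.0% and 34.1% of all genes. The median log2 ratio was -0.24, or 0.10 with total counts. With total counts 4 intervals lay below 1 and 5 above, and 1 gene was 2-fold lower and 1 higher. Gabpa had 1352 counts (23.5 CPM) in the APAP library and 1870 counts (40.2 CPM) in the control library, 1.71-fold lower (1.59 to 1.84). Nrf1 and Yy1, named here because their motifs were searched, had ratios of 0.764 (0.666 to 0.877) and 0.708 (0.674 to 0.744), which became 0.971 (0.846 to 1.11) and 0.900 (0.856 to 0.946) with total counts, so that the interval of Nrf1 then held 1. Ppara, a lipid-sensing receptor, was 2.03-fold lower (a ratio of 0.626 and no longer past the limit with total counts), and Myc, a growth-promoting transcription factor, 12.8-fold lower (11.5 to 14.3). Ppargc1a, the coactivator best known for raising mitochondrial content, was on the other side, with 317 counts in the APAP library and 161 in the control library, 1.59-fold higher (1.31 to 1.94), and with total counts it passed the 2-fold limit, at 2.02.

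The factors that work on the ribosome were close to 1 in the median with TMM. Of 13 listed translation factors none passed the 1.5-fold limit, and the median log2 ratio was -0.0004. For 4 the interval lay above 1 and for 3 below, against 34.1% and 33.0% of all genes. With total counts 11 intervals lay above 1 and none below, and the median was 0.34. Tsfm, the exchange factor of elongation factor Tu, had 896 counts in the APAP library and 511 in the control library, 1.42-fold higher (1.27 to 1.58). Mtfmt, which formylates the initiator tRNA, was 1.36-fold higher (1.17 to 1.59), and Mrrf, the ribosome recycling factor, 1.201-fold higher (1.093 to 1.320). Taco1, an activator of Co1 translation, had a ratio of 0.856 (0.770 to 0.951), Gfm2, which splits the subunits after termination, one of 0.859 (0.810 to 0.910), and the insertase Oxa1l one of 0.922 (0.865 to 0.983). These 3 moved to between 1.09 and 1.17 with total counts, and 5 factors then passed the 1.5-fold limit: Tsfm, Mtfmt, Mrrf, the elongation factor Tufm and the release factor Mtrf1l.

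Assembly and rRNA-modifying factors had a wider range of log2 ratios, from -0.70 to 0.92, against -0.22 to 0.50 for the translation factors. Their interquartile range was not wider, at 0.31 against 0.38. Of 27, none passed the 2-fold limit, 3 were at least 1.5-fold higher and 2 at least 1.5-fold lower. The 3 were Mettl15, a methyltransferase of the small-subunit rRNA, with 179 counts in the APAP library and 76 in the control library (1.90-fold higher, 1.45 to 2.53), the small-subunit assembly factor Mettl17 (1.81-fold higher, 1.59 to 2.07) and the pseudouridine synthase Rpusd4 (1.55-fold higher, 1.27 to 1.89). The 2 were Gtpbp10, a GTPase of large-subunit assembly, with 470 counts in the APAP library and 616 in the control library (1.62-fold lower, 1.43 to 1.83), and Grsf1, a protein of mitochondrial RNA granules (1.51-fold lower, 1.45 to 1.58). Eral1, which binds the small-subunit rRNA, was 1.39-fold lower (1.24 to 1.56). With total counts, Mettl15 (2.42) and Mettl17 (2.30) passed the 2-fold limit, the rRNA methyltransferase Mrm2 joined the 1.5-fold higher genes at 1.87, and Gtpbp10 (0.784) and Grsf1 (0.841) no longer passed that limit. The interval of Eral1 then held 1.

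Of 14 listed genes for mitochondrial transcription, replication and mRNA stability, 1 was at least 2-fold lower and none higher. This was Polg2, the accessory subunit of the mitochondrial DNA polymerase, with 121 counts in the APAP library and 212 in the control library, 2.17-fold lower (1.72 to 2.73), or a ratio of 0.587 and no longer past the limit with total counts. The transcription factor Tfb2m had a ratio of 0.766 (0.699 to 0.839) and the polymerase Polg one of 0.776 (0.728 to 0.827). Higher values were seen for the RNA-degrading enzyme Pnpt1, at 1.17 (1.08 to 1.27), and for the DNA-binding protein Ssbp1, at 1.13 (1.02 to 1.25). Top1mt, a topoisomerase, had a ratio of 1.04 (0.954 to 1.14). With total counts the intervals of Tfb2m and Polg held 1.

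The members' products work beside other groups of genes that lay elsewhere. The 85 cytosolic ribosomal protein genes had a median log2 ratio of 0.46 and a summed ratio of 1.37, with 79 intervals above 1 and none below. The 82 nuclear-encoded respiratory chain genes with at least 20 counts had a median of -0.22 and a summed ratio of 0.842, with 5 intervals above 1 and 58 below, or 56 above and 8 below with total counts. The 13 mRNAs encoded in mitochondria, the templates of this ribosome, had a median of -1.49, and all 13 were at least 2-fold lower, from mt-Nd3 at 2.36-fold lower to mt-Co1 at 3.63-fold lower. With total counts 10 of the 13 were, without mt-Nd1, mt-Nd3 and mt-Nd6. They took 7.44% of all counts in the APAP library and 17.6% in the control library. With total counts the medians became 0.80 for cytosolic ribosomal proteins, 0.13 for respiratory chain genes, -1.15 for mitochondrial mRNAs and 0.43 for the members, so the respiratory chain median changes sign and the order of the groups does not.

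The ribosomal RNAs of the particle were lower along with these mRNAs. The small-subunit rRNA mt-Rnr1 had 28259 counts in the APAP library and 78573 in the control library, 3.44-fold lower (3.39 to 3.48). The large-subunit rRNA mt-Rnr2 had 51471 counts in the APAP library and 158680 in the control library, 3.81-fold lower (3.77 to 3.85). With total counts the ratios were 0.370 for mt-Rnr1 and 0.333 for mt-Rnr2, both still past the 2-fold limit. The libraries were made with an mRNA kit, and whether these counts follow the amount of rRNA was not tested.

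**Figure D4:**
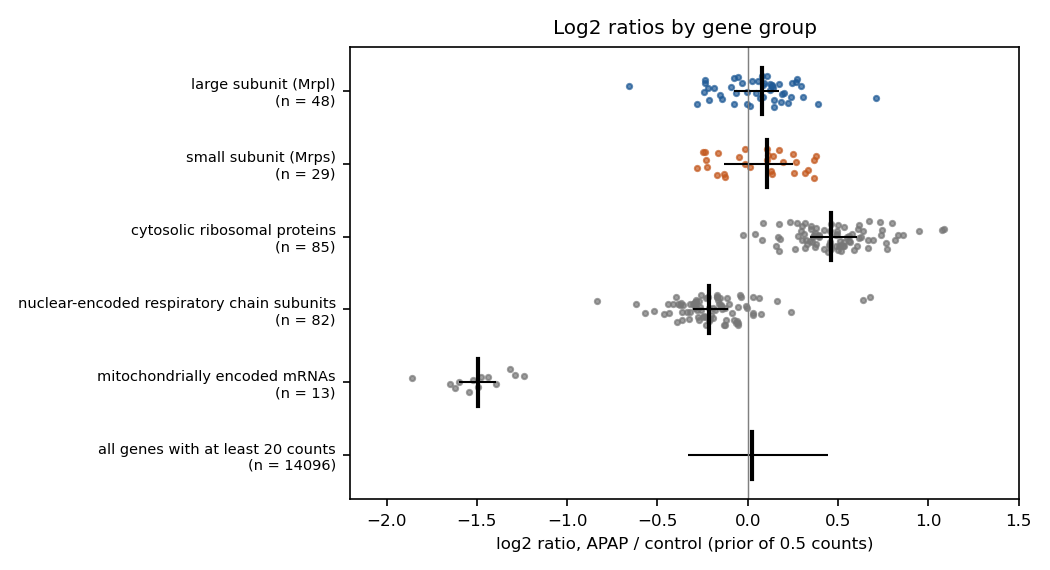
Log2 ratio, APAP over control, of each gene by group, with points for genes, horizontal bars for the interquartile range and vertical bars for the median. All genes are shown by bars alone, and mitochondrially encoded mRNAs by 13 points. Mrpl genes (median 0.08) and Mrps genes (0.11) lie between cytosolic ribosomal proteins (0.46) and respiratory chain subunits (-0.22), and mitochondrially encoded mRNAs lie lowest (-1.49).

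Markers of the sorted cells and of others were read in the same libraries. The 9 listed hepatocyte markers summed to 83155 CPM in the APAP library, against 60168 CPM in the control. Ahsg, Apoa1 and Alb carried the higher sum, and the other 6 had intervals below 1, with Cps1 lowest at a ratio of 0.713. With total counts 8 of the 9 intervals lay above 1, and that of Cps1 alone below, at a ratio of 0.906. Of the markers of other liver cells, 11 of 12 endothelial genes were listed and summed to 25.2 CPM in the APAP library, against 21.05 CPM in the control. Of the 10 with at least 20 counts, 5 were at least 2-fold higher, such as Cdh5 at 6.504, and Stab2 and Tie1 at least 2-fold lower. With total counts 7 of these 10 were at least 2-fold higher and 0 at least 2-fold lower. The 7 listed of 12 macrophage and leukocyte genes summed to 5.93 CPM in the APAP library, against 0.129 CPM in the control, and Cd68 alone made up 4.99 CPM in the APAP library. The 8 listed of 10 stellate and fibroblast genes summed to 10.8 CPM in the APAP library and 1.10 in the control library, with 9.39 and 0.753 from Reln. The 4 listed of 7 cholangiocyte genes summed to 34.5 CPM in the APAP library, against 3.01 CPM in the control, nearly all of it from Sox9 and Spp1. The markers Krt19, Krt7 and Epcam were not among the rows of the count table. Which cells the Sox9 and Spp1 counts came from was not tested. The 2 listed of 7 neutrophil genes summed to 0.174 CPM in the APAP library and 0.0860 in the control library. Marco, Cd5l, Lyz2, Csf1r, Ly6g, Col3a1, Pdgfrb, Col1a1, Col1a2, Cldn4 and Tspan8 had no counts in the control library. In the APAP library they had from 1 (Col1a2) to 24 (Csf1r), and only Csf1r and Col3a1 reached the minimum of 20. Cd79a and Cd3e had none in the APAP library, and 2 and 1 in the control library. Of all 20823 genes, 2765 had no counts in the control library and 1465 none in the APAP library. The part of other liver cells in the members' ratios was not tested.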

How the data were processed

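Messenger RNA was measured in 1 APAP and 1 control library of sorted mouse hepatocytes, prepared by mRNA-seq (Tecan, per the labels). HISAT2, Subread and build mm39 are named, without roles, in the submitters' processing notes. Versions, annotation, use of strand and handling of read pairs are not given in the sources used here. Raw counts, as deposited per Ensembl gene, were analysed. The authors' second table held a normalized signal, each count divided by 1 size factor per library (1.12 for APAP and 0.894 for control), and served as an alternative scaling.

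Symbols came from a table of Ensembl IDs that matched 20679 of 20823 genes. Library totals of 51009898 (APAP) and 52419864 (control) were scaled by TMM (edgeR 4.0.16, R 4.3.3). Ratios carry exact conditional Poisson (Clopper-Pearson) 95% intervals, and reads without molecular identifiers are not independent molecules. Log2 ratios used a prior of 0.5 counts. The limit for a higher or lower gene was a ratio of at least 2 in that direction, an interval excluding 1 and at least 20 counts over both libraries. With 1 library per group no test was made. The steps were run on simulated Poisson counts with known ratios. These hold counting error only, so they check the code and cannot show how real libraries vary. Alternatives were total counts, DESeq2 1.42.0 size factors, the authors' signal, totals without genes above 1% of a library, other minimums, limits and priors, halved counts and other subunit assignments. Even numbers made up 70.7% (APAP) and 68.3% (control) of counts from 1 to 20, hence the halved counts.

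GENCODE M21 and the RefSeq windows are of GRCm38, so no other coordinates are given. Named were, per subunit, the 6 highest and 6 lowest ratios among genes with at least 100 counts and the 4 with the most counts, further the region lists, the S18 paralogs, genes whose name and place differ, and in each other list the 3 farthest each way. Protein sequences were not used here. The members and lists were chosen with earlier results of these data known. Python 3.11.15, numpy 2.4.6, scipy 1.17.1 and pandas 2.3.3 were used.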

Additional observations from a re-analysis of the deposited data

How the results depend on the processing

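Of the choices tried, the scaling of the libraries mattered most, which by construction shifts all genes alike. With total counts, 1 member was at least 2-fold higher (Mrpl54), 65 intervals lay above 1 and 1 below (over all genes 2435 of 14096, 60.2% and 14.7%), and the median log2 ratio was 0.43 for all members, 0.43 for the large and 0.45 for the small subunit, with a summed ratio of 1.31. With totals without genes above 1%, these values were 1, 65, 1, 0.42, 0.42, 0.45 and 1.31. With DESeq2 size factors the summed ratio was 1.02, and the other results stayed close. The authors' signal gave the same values, since its size factors (1.12 for APAP and 0.894 for control) equal those of DESeq2, so it is not a separate check. Named members with an interval below 1 moved above 1 with total counts: Mrpl28 to 1.08, Mrpl41 to 1.09, Mrpl45 to 1.14, Mrpl47 to 1.05, Mrpl49 to 1.08, Mrpl9 to 1.07, Mrps17 to 1.09, Mrps18a to 1.05, Mrps21 to 1.07, Mrps24 to 1.08, Mrps33 to 1.08 and Mrps5 to 1.13. Without genes above 1% the same genes had ratios of 1.07, 1.09, 1.14, 1.04, 1.08, 1.07, 1.08, 1.04, 1.07, 1.08, 1.08 and 1.12. The other 29 named genes moved up under both scalings. Over all members, 17 of the 18 with an interval below 1 moved so. The difference of medians and the subunit share do not depend on scaling. With counts halved for the interval, 21 intervals lay above 1 and 11 below. At a 1.5-fold limit, 1 member was higher and 1 lower; with total counts as well, a setting chosen after seeing the data, 15 were higher and 0 lower. Count minimums, a prior of 5 counts and subunits by structure kept the counts within 1.5 times and the medians and shares within the counting error. No paired analysis was possible because each group had 1 library. For the same reason no library could be left out.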

Other observations

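Of 15 listed mitochondrial proteases and chaperones none passed the 1.5-fold limit, 3 intervals lay above 1 and 11 below, and the median log2 ratio was -0.17. The protease subunits Clpx and Clpp had ratios of 1.23 (1.19 to 1.27) and 1.23 (1.15 to 1.30), and the protease Oma1 one of 1.106 (1.002 to 1.221). The chaperonin partner Hspe1 had 2935 counts in the APAP library and 3284 in the control library, 1.38-fold lower, the chaperone Trap1 was 1.34-fold lower and the protease Spg7 had a ratio of 0.800. Of 19 protein import genes with at least 20 counts, 5 intervals lay above 1 and 7 below, with a median log2 ratio of 0.01, and Timm9 alone passed the 1.5-fold limit. The small import chaperones Timm9 and Timm10 had ratios of 0.574 (0.511 to 0.645) and 0.693 (0.596 to 0.805), and the receptor Tomm70a one of 0.738. The channel subunits Timm17b and Timm22 had ratios of 1.302 (1.209 to 1.402) and 1.29 (1.12 to 1.49), and Tomm7 one of 1.13 (1.05 to 1.21). With total counts, Spg7 moved to 1.02, the interval of Timm10 held 1, Clpx, Clpp, Timm17b and Timm22 passed the 1.5-fold limit, and Timm9 (0.729) no longer did. The medians then became 0.17 and 0.35, with 12 intervals above 1 and 2 below for proteases and chaperones and 13 above and 2 below for import.

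The 4 pseudogene rows left out by the rule had few counts. Mrpl23-ps1 had 79 counts in the APAP library and 85 in the control library, Mrpl48-ps 81 and 53, Mrps36-ps1 18 and 7, and Mrps36-ps2 30 and 5. Reads shared between a pseudogene and its parent may be split or dropped by the counting, so the values of Mrpl23, Mrpl48 and Mrps36 are less certain than the others.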
